A study of Rattus norvegicus with 12 samples.

Results

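The genes described here carry glucose carbon to carbon dioxide: glycolysis with its glucose transporters and lactate dehydrogenases, the pyruvate dehydrogenase complex with its kinases and phosphatase, and the citric acid cycle. A list of 43 genes was matched to the array by gene symbol, using the probe sets whose platform annotation gives exactly 1 symbol, and 40 of the 43 were measured, among 14324 genes in all. They comprised 22 genes of glycolysis, 7 of pyruvate dehydrogenase and 11 of the cycle, and were read by 63 probe sets. Hk1, Dlst and Fh are not analysed here. The matching used no measured value, but the list was chosen with earlier results of these data known.

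The arrays profiled cultures of heart muscle cells from newborn Sprague-Dawley rats, taken at 2 days of age and kept for 3 days on coated coverslips before treatment. The cultures then received the plasticiser di(2-ethylhexyl) phthalate (DEHP) at 1, 10 or 50 µg/ml for 3 days, in 0.1% dimethyl sulphoxide (DMSO), and the vehicle group received 0.1% DMSO alone. Each of the 4 groups had 3 arrays, and all 12 cultures came from 1 litter, so p-values describe variation among cultures of that litter alone. The series title asks about dose dependence, so every dose was set against the vehicle and the doses against one another.

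In glycolysis, glucose enters through a transporter, is trapped by hexokinase and is committed by phosphofructokinase, which fructose-2,6-bisphosphate activates. The pyruvate formed is reduced to lactate by lactate dehydrogenase or oxidised by pyruvate dehydrogenase, which its kinases switch off and its phosphatases switch on. The resulting acetyl-CoA is burned in the cycle, which supplies NADH to the respiratory chain. The newborn heart is known for a move from glucose and lactate towards fatty acids as its fuel.

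All values are log2 ratios of an array to the median of the 12 arrays, or differences between group means of these ratios, with n = 3 arrays per group. A difference of 1 is a doubling. The deposited ratios carry no level, so genes cannot be ranked by abundance, and the labelled cell type could not be checked against absolute marker levels. A larger ratio was taken to mean more RNA, although the labels do not state which way the ratio runs. Were it inverted, every rise below would be an equal fall. Calls are limma tests with Benjamini-Hochberg adjustment over all 14324 genes, past a threshold of 0.05. For the 40 measured genes the SD within groups ran from 0.033 to 0.235 with a median of 0.091. The half-width of the 95% interval of a difference had a median of 0.151, which the number of arrays limits.

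At 50 µg/ml, Pfkfb3 fell to 0.576 of its vehicle value, and 5 genes spread along the pathway rose by 0.26 to 0.31: Pgam2, Ldhb, Pdk2, Suclg2 and Mdh2. At 1 µg/ml, Pfkfb3 and Hk2 fell, to 0.628 and 0.561 of vehicle, and none of the 40 genes rose past the threshold. At 10 µg/ml no gene of the pathway was called against the vehicle. The other genes, among them Gapdh, Ldha, Pkm, Cs and Ogdh, were called against the vehicle at no dose.

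The 6 of 40 genes called at 50 µg/ml, 5 higher and 1 lower, stand beside 17.6% of all genes called in that comparison, 8.75% higher and 8.84% lower. The 2 of 40 called at 1 µg/ml, both lower, stand beside 4.24% of all genes called there, 2.51% higher and 1.74% lower. The 3 arrays of a dose lay wholly above or below the vehicle arrays for 10 of 40 genes at 50 µg/ml (36.0% of all genes), 9 of 40 at 1 µg/ml (30.8%) and 4 of 40 at 10 µg/ml (11.2%). In the 10 µg/ml cultures limma called 0 of the 40 genes, beside 0.0% of all genes. At an unadjusted p under 0.05 there were 2 of 40 at that dose, Ldhb and Pdk2, beside 899 of all genes, and a fit with array weights called 1, Ldhb. The median difference of the 40 genes was 0.04 at 50 µg/ml, 0.03 at 10 µg/ml and 0.04 at 1 µg/ml, against 0.02, -0.01 and -0.00 over all genes. The shares at 50 and 1 µg/ml lie near those of all genes, so the counts do not set the pathway apart. The 3 comparisons share the vehicle arrays, and their values are given side by side without a measure of their likeness.

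**Figure D1:**
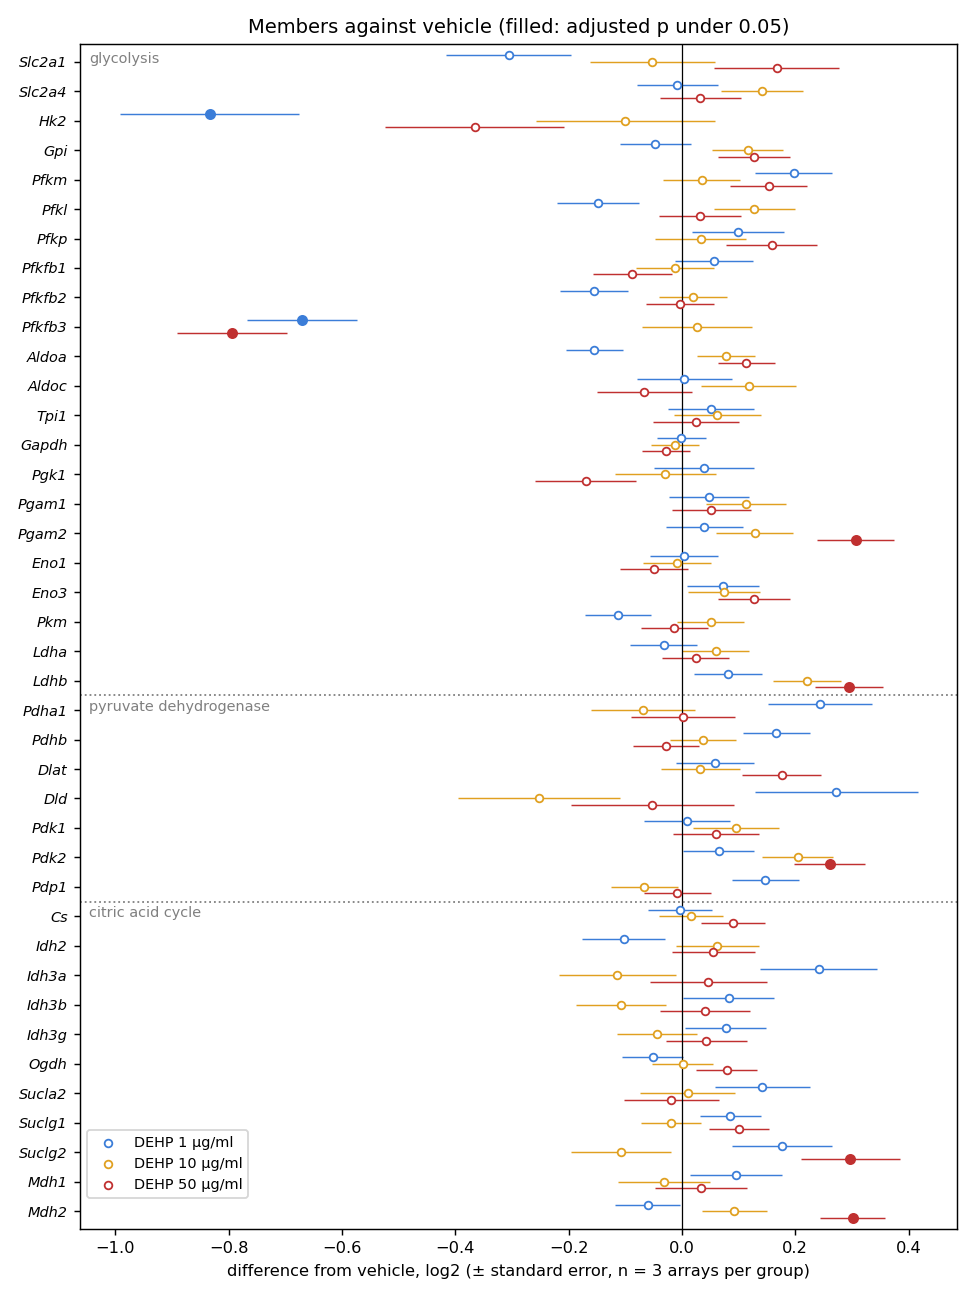
Difference of each of the 40 measured genes from the vehicle on the log2 scale (horizontal axis), in pathway order, with standard errors, at 1 (blue), 10 (yellow) and 50 µg/ml (red), n = 3 arrays per group. Filled points are past the adjusted p threshold of 0.05: Hk2 and Pfkfb3 at 1 µg/ml, and Pfkfb3, Pgam2, Ldhb, Pdk2, Suclg2 and Mdh2 at 50 µg/ml.

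Of the glucose transporters, Slc2a1 encodes the basal carrier GLUT1 and Slc2a4 the insulin-responsive carrier GLUT4 of muscle and fat. Slc2a1 read 0.32, -0.02 and -0.17 on the vehicle arrays, -0.14, -0.40 and -0.24 at 1 µg/ml, -0.13, 0.09 and 0.02 at 10 µg/ml and 0.29, 0.17 and 0.18 at 50 µg/ml. The vehicle arrays were spread widely and overlapped every dose, while the arrays at 50 µg/ml all lay above those at 1 µg/ml. Slc2a1 was higher at 50 than at 1 µg/ml by 0.47 ± 0.11 (SE, adjusted p = 0.00844), and its difference from vehicle was 0.17 at 50 µg/ml (adjusted p = 0.36) and -0.31 at 1 µg/ml (adjusted p = 0.139). Without vehicle replicate 1 the difference of Slc2a1 at 50 µg/ml became 0.31 and was called. Slc2a4 differed from vehicle by 0.03 at 50 µg/ml, with a 95% interval from -0.12 to 0.19.

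Hk2, the hexokinase typical of muscle, gave the largest difference of the 40 genes at 1 µg/ml. It read 0.64, 0.24 and -0.07 on the vehicle arrays, -0.52, -0.64 and -0.53 at 1 µg/ml, 0.07, 0.02 and 0.41 at 10 µg/ml and 0.06, -0.33 and -0.02 at 50 µg/ml. The arrays at 1 µg/ml lay below all others, and those at 50 µg/ml overlapped the vehicle. Hk2 was lower than vehicle by 0.83 ± 0.16 at 1 µg/ml (SE, log2 difference -0.83, adjusted p = 0.0147), a call lost without replicate 1 of that dose (-0.86, adjusted p = 0.0503). The difference from vehicle was -0.37 at 50 µg/ml (adjusted p = 0.142), with a 95% interval from -0.71 to -0.02, and without vehicle replicate 3 it was -0.54 and was called. Hk2 was higher at 10 than at 1 µg/ml by 0.73 (adjusted p = 0.0119) and higher at 50 than at 1 µg/ml by 0.47 (adjusted p = 0.0472).

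Pfkfb3 encodes a bifunctional enzyme whose kinase activity makes fructose-2,6-bisphosphate, the activator of phosphofructokinase. It read 0.57, 0.19 and 0.30 on the vehicle arrays, -0.29, -0.19 and -0.48 at 1 µg/ml, 0.42, 0.31 and 0.41 at 10 µg/ml and -0.52, -0.49 and -0.32 at 50 µg/ml. Every array at 1 and 50 µg/ml was below 0 and every vehicle and 10 µg/ml array above it. Pfkfb3 fell by 0.79 ± 0.10 at 50 µg/ml (SE, adjusted p = 0.000105) and by 0.67 at 1 µg/ml (adjusted p = 0.00408), and differed by 0.03 at 10 µg/ml (adjusted p = 0.98). Both falls were called in all 19 alternatives. Between the doses, Pfkfb3 was lower at 50 than at 10 µg/ml (-0.82, adjusted p = 0.000109) and higher at 10 than at 1 µg/ml (0.70, adjusted p = 0.00169). Its difference between 50 and 1 µg/ml was -0.12, with a 95% interval from -0.33 to 0.09. The values thus did not follow the order of the doses.

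The related Pfkfb1 and Pfkfb2, which make and break the same activator, were called in no comparison, and Pfkfb1 differed from vehicle by -0.09 at 50 µg/ml. Pfkfb2, the form typical of heart, differed from vehicle by -0.16 at 1 µg/ml (adjusted p = 0.166), and its 95% interval at 50 µg/ml ran from -0.13 to 0.13. The gap of Pfkfb2 over Pfkfb3 within an array was therefore larger than in the vehicle by 0.79 at 50 µg/ml and 0.52 at 1 µg/ml, and differed by -0.01 at 10 µg/ml. The promoters of Pfkfb3 and Hk2, called together at 1 µg/ml, and of Pdk2, called with Pfkfb3 at 50 µg/ml, are shown because CACGTG was present in the first and the last of them and absent from Hk2. At 50 µg/ml Pfkfb3 fell and Pdk2 rose. The other genes called with Pfkfb3 at 50 µg/ml, Pgam2, Ldhb, Suclg2 and Mdh2, had neither CACGTG nor ACGTG in their promoter windows. The sequences are the 250 bases before the RefSeq start in the GRCr8 build, 5′ to 3′ on the gene's strand, at chr17:71944683-71944932 (plus strand), chr4:116841276-116841525 (minus strand) and chr10:80483913-80484162 (minus strand). Capitals mark CACGTG, the E-box letters that read the same on both strands.
Pfkfb3: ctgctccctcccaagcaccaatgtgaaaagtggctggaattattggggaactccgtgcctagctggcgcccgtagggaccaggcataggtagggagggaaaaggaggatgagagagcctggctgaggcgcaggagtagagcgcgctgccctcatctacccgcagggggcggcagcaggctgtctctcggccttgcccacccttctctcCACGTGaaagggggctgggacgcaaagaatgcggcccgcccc
Hk2: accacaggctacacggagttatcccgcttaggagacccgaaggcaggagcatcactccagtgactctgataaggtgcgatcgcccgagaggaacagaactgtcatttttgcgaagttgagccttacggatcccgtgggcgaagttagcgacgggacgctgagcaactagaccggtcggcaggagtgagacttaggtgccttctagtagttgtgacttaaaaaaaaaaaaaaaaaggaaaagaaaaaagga
Pdk2: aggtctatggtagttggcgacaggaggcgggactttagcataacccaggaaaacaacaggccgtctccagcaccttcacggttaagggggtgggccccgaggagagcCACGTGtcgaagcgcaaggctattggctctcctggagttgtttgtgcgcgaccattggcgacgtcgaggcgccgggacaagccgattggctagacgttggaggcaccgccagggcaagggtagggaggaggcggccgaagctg
CACGTG begins at position -42 of Pfkfb3 and -143 of Pdk2, counted from the start. Each of 4 motifs was searched on both strands in windows of 300 bases that run to 50 bases after the start. They were the E-box CACGTG, the motif ACGTG that it contains on both strands and that is the core of the hypoxia response element, the variant core GCGTG and the motif AAGGTCA. None of them was in the windows of Hk2, Pgam2 and Suclg2. GCGTG was in the windows of Ldhb (position -103) and Mdh2 (position -120) and absent from those of Pfkfb3 and Pdk2. CACGTG was in 5 of the 39 promoter sequences of measured listed genes (12.8%). The share was 7.75% of 12381 promoter sequences of genes on the array and 6.42% of all 33469 promoters. These numbers count sequences, not genes. ACGTG was in 16 of 39 (41%), against 22.1% and 19.3%. GCGTG was in 18 of 39 (46.2%), against 40.5% and 29.7%. AAGGTCA, a nuclear receptor half-site with its flanking bases, was in 2 of 39 (5.13%), against 3.38% and 4.61%. A match describes letters only.

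**Figure D2:**
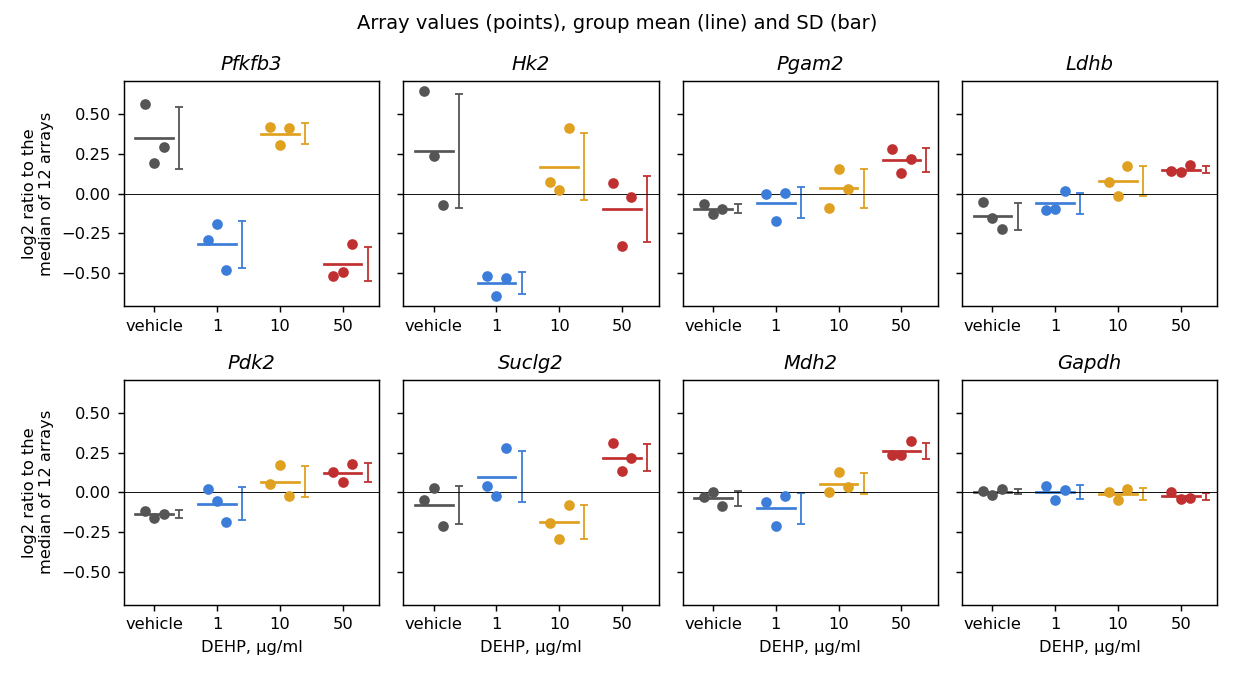
Log2 ratio to the median of 12 arrays (vertical axis) by dose for the 7 genes called against the vehicle and for Gapdh, with each array as a point, the group mean as a line and the SD as a bar. The Pfkfb3 arrays at 1 and 50 µg/ml lie below 0, from -0.19 to -0.52, and its other arrays above 0, while Pgam2, Ldhb, Pdk2, Suclg2 and Mdh2 lie above all vehicle arrays at 50 µg/ml.

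The phosphofructokinases Pfkm (muscle), Pfkl (liver) and Pfkp (platelet) catalyse the committed step. None was called against the vehicle at any dose. Pfkm differed by 0.20 at 1 µg/ml (adjusted p = 0.125), where its 3 arrays lay above the vehicle, and by 0.15 at 50 µg/ml (adjusted p = 0.156). Pfkp differed by 0.16 at 50 µg/ml (adjusted p = 0.224). Pfkl read -0.08, -0.20 and -0.20 at 1 µg/ml and -0.00, 0.28 and 0.07 at 10 µg/ml, with vehicle arrays at 0.06, 0.00 and -0.09. It was higher at 10 than at 1 µg/ml by 0.28 (adjusted p = 0.0259), with no overlap between the arrays of these doses. Aldoa, the muscle aldolase, read -0.13, -0.22 and -0.19 at 1 µg/ml, -0.04, 0.09 and 0.12 at 10 µg/ml and 0.11, 0.10 and 0.07 at 50 µg/ml, around vehicle arrays at -0.02, 0.02 and -0.07. Its arrays at 1 µg/ml lay below the vehicle and those at 50 µg/ml above it. Aldoa was higher at 50 than at 1 µg/ml by 0.27 (adjusted p = 0.00261) and higher at 10 than at 1 µg/ml by 0.23 (adjusted p = 0.0124), whereas against the vehicle it differed by 0.11 at 50 µg/ml (adjusted p = 0.156) and -0.15 at 1 µg/ml (adjusted p = 0.105).

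In lower glycolysis, from aldolase to pyruvate kinase, 1 of 10 genes was called at 50 µg/ml, beside 17.6% of all genes. That gene was Pgam2, the muscle form of phosphoglycerate mutase. Pgam2 read -0.07, -0.13 and -0.09 on the vehicle arrays, 0.00, -0.17 and 0.00 at 1 µg/ml, -0.09, 0.15 and 0.03 at 10 µg/ml and 0.28, 0.13 and 0.22 at 50 µg/ml. The arrays at 50 µg/ml lay above all vehicle arrays. Pgam2 rose by 0.31 ± 0.07 (SE, adjusted p = 0.00714) at that dose, a 1.24-fold change, and its difference was 0.13 at 10 µg/ml and 0.04 at 1 µg/ml.

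Gapdh, which oxidises glyceraldehyde-3-phosphate, differed from vehicle by -0.03 at 50 µg/ml (95% interval -0.12 to 0.06), and its 16 probe sets each differed by -0.05 to -0.01. Gapdh has many processed pseudogenes, so part of its signal is uncertain. Pgk1, a phosphoglycerate kinase, differed by -0.17 at 50 µg/ml (adjusted p = 0.234). Eno3, the muscle enolase, differed by 0.13 (adjusted p = 0.208) with all 3 arrays above the vehicle, and the widespread Eno1 by -0.05. Pkm, which makes pyruvate, differed by -0.01 at 50 µg/ml and by -0.11 at 1 µg/ml (adjusted p = 0.31). The remaining genes of these steps, Gpi, Aldoc, Tpi1 and Pgam1, differed from vehicle by -0.07 to 0.13 at 50 µg/ml, none of them called.

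Lactate dehydrogenase tetramers are built from the products of Ldha, the muscle form, and Ldhb, the heart form. Ldhb read -0.05, -0.15 and -0.22 on the vehicle arrays, -0.10, -0.09 and 0.02 at 1 µg/ml, 0.08, -0.02 and 0.18 at 10 µg/ml and 0.14, 0.13 and 0.18 at 50 µg/ml. The arrays at 10 and 50 µg/ml all lay above the vehicle. Ldhb rose by 0.29 ± 0.06 at 50 µg/ml (SE, adjusted p = 0.00446), a 1.23-fold change. At 10 µg/ml it differed by 0.22, which was not past the threshold (adjusted p = 0.542), and at 1 µg/ml by 0.08. Ldha differed by 0.02 at 50 µg/ml, with a 95% interval from -0.10 to 0.15.

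The lactate dehydrogenases are 1 of 10 pairs of related enzymes that were compared within each array, where array-wide shifts cancel. The pairs were chosen after their values were seen and are described without a test. The gap of Ldhb over Ldha was larger than in the vehicle by 0.11 at 1 µg/ml, 0.16 at 10 µg/ml and 0.27 at 50 µg/ml, with SDs of 0.12, 0.12 and 0.07 at these doses and 0.04 in the vehicle. Its arrays overlapped the vehicle at 1 and 10 µg/ml and not at 50 µg/ml. The gap of Pgam2 over Pgam1 differed from the vehicle by 0.25 at 50 µg/ml and 0.02 at 10 µg/ml. For Eno3 over Eno1 the difference was 0.18 at 50 µg/ml and 0.08 at 10 µg/ml. In these 3 pairs the gene of the muscle or heart form was the one that stood higher at 50 µg/ml, with no overlap with the vehicle. Slc2a4 over Slc2a1 went the other way at that dose (-0.13), and its arrays overlapped the vehicle. All other pairs were also clear of the vehicle at 50 µg/ml, so this was not particular to those 3. They were Suclg2 over Sucla2 (0.32), Mdh2 over Mdh1 (0.27), Pdk2 over Pdk1 (0.20), Aldoa over Aldoc (0.18), Pfkm over Pfkl (0.12) and Pfkfb2 over Pfkfb3 (0.79). Over all single genes, 36.0% had no overlap at that dose, and no share over other gene pairs was computed. Each of the 6 genes called at 50 µg/ml belongs to 1 of the 10 pairs, so their gaps partly restate those calls. Clear of the vehicle at 1 µg/ml were Slc2a4 over Slc2a1 (0.30), Pfkm over Pfkl (0.35), Pfkfb2 over Pfkfb3 (0.52) and Mdh2 over Mdh1 (-0.16). At 10 µg/ml they were Eno3 over Eno1 (0.08) and Suclg2 over Sucla2 (-0.12).

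**Figure D3:**
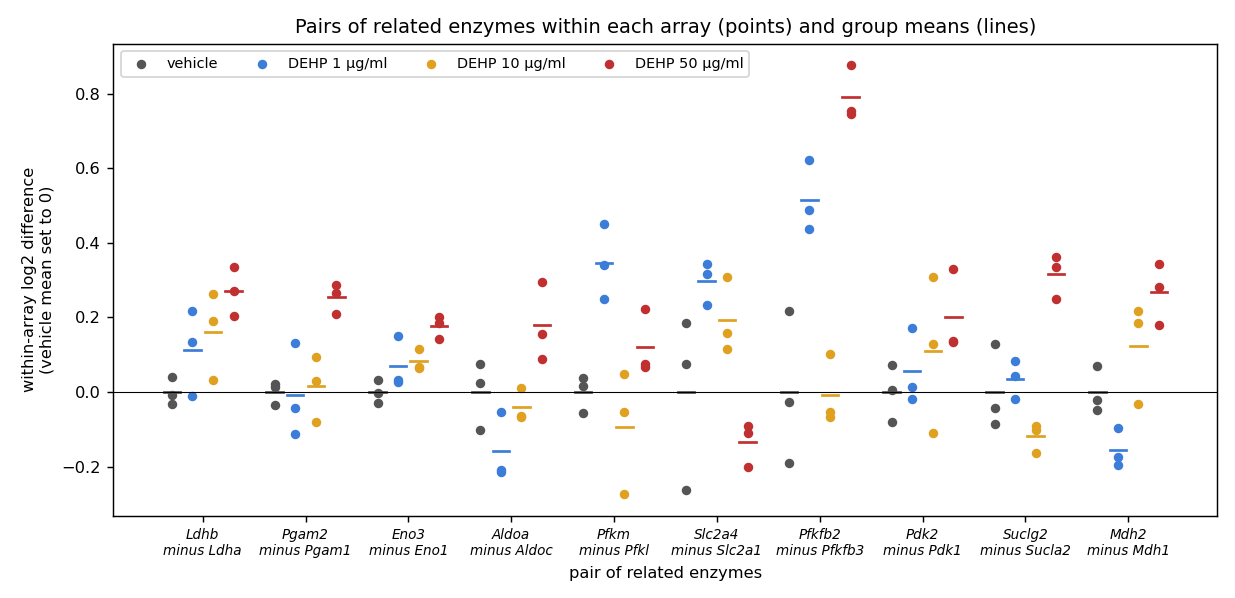
Within-array log2 difference between 2 related enzymes (vertical axis, mean of the vehicle arrays set to 0) for 10 pairs, with each array as a point and each group mean as a line, at vehicle (grey), 1 (blue), 10 (yellow) and 50 µg/ml (red). Ldhb minus Ldha stands at 0.27 and Pgam2 minus Pgam1 at 0.25 at 50 µg/ml, and Pfkfb2 minus Pfkfb3 at 0.52 at 1 and 0.79 at 50 µg/ml with -0.01 at 10 µg/ml.

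Among the 7 pyruvate dehydrogenase genes, 1 was called against the vehicle, at 50 µg/ml, where 17.6% of all genes were called. Pdk2, a kinase that phosphorylates and inhibits the complex, read -0.12, -0.16 and -0.13 on the vehicle arrays, 0.02, -0.05 and -0.19 at 1 µg/ml, 0.05, 0.17 and -0.02 at 10 µg/ml and 0.13, 0.06 and 0.18 at 50 µg/ml. The arrays at 10 and 50 µg/ml lay above the tight vehicle group. Pdk2 rose by 0.26 ± 0.06 at 50 µg/ml (SE, adjusted p = 0.0118), a call lost without replicate 3 of that dose (0.23, adjusted p = 0.0507). Its difference of 0.20 at 10 µg/ml was not called (adjusted p = 0.662). Pdk1, another kinase, differed by 0.06 at 50 µg/ml.

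At 1 µg/ml all 7 pyruvate dehydrogenase genes had a positive difference from vehicle, with a median of 0.15, although 0 of 7 were called and 3 had an unadjusted p under 0.05. Over all genes, 6904 of 14324 differences were positive at that dose and 2889 had an unadjusted p under 0.05. The 3 pyruvate dehydrogenase genes were Pdha1 and Pdhb, the subunits of the decarboxylase, and the phosphatase gene Pdp1, which turns the complex back on. Pdha1 read 0.02, -0.04 and -0.15 on the vehicle arrays and 0.24, 0.01 and 0.32 at 1 µg/ml. Pdhb read 0.02, -0.01 and -0.12 on the vehicle arrays and 0.12, 0.06 and 0.22 at 1 µg/ml. Pdp1 read -0.02, -0.05 and 0.11 on the vehicle arrays and 0.16, 0.12 and 0.21 at 1 µg/ml. The arrays at 1 µg/ml lay above the vehicle for Pdhb and Pdp1 and overlapped it for Pdha1. Pdha1 differed by 0.24 (adjusted p = 0.157), Pdhb by 0.17 (adjusted p = 0.13) and Pdp1 by 0.15 (adjusted p = 0.184), and Dld, the dihydrolipoamide dehydrogenase shared with the cycle, differed by 0.27 (adjusted p = 0.318). The median difference was 0.00 at 50 µg/ml. Dlat, the acetyltransferase core, differed by 0.18 at 50 µg/ml (adjusted p = 0.108) and was called there with array weights and without replicate 2 at 10 µg/ml.

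For 10 against 1 µg/ml, 3 of the 7 pyruvate dehydrogenase genes (Dld, Pdha1 and Pdp1) were called, all lower at 10 µg/ml, beside 9.2% of all genes called lower. The arrays of the 2 doses did not overlap for 2 of the 7, beside 30.4% of all genes. Dld read 0.21, 0.10 and 0.51 at 1 µg/ml and -0.22, -0.53 and -0.01 at 10 µg/ml. The groups did not overlap, but replicate 2 at 10 µg/ml stood lowest by a wide margin. Dld was lower at 10 than at 1 µg/ml (-0.53, adjusted p = 0.0311), as were Pdha1 (-0.31, adjusted p = 0.0409), whose arrays overlapped, and Pdp1 (-0.21, adjusted p = 0.0328). Pdhb was lower at 50 than at 1 µg/ml (-0.20, adjusted p = 0.0285).

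Of the 11 citric acid cycle genes, 2 were called at 50 µg/ml, both higher, beside 17.6% of all genes called. Of the 11 differences 10 were positive, with a median of 0.06, and over all genes 8160 of 14324 were positive. Mdh2 encodes the mitochondrial malate dehydrogenase, which closes the cycle. It read -0.03, -0.00 and -0.09 on the vehicle arrays, -0.06, -0.21 and -0.03 at 1 µg/ml, 0.00, 0.13 and 0.03 at 10 µg/ml and 0.23, 0.23 and 0.32 at 50 µg/ml. The arrays at 50 µg/ml lay above all others. Mdh2 rose by 0.30 ± 0.06 at 50 µg/ml (SE, adjusted p = 0.00279), was higher at 50 than at 10 µg/ml by 0.21 (adjusted p = 0.0276) and higher at 50 than at 1 µg/ml by 0.36 (adjusted p = 0.000858). The cytosolic form, Mdh1, differed from vehicle by 0.03 at 50 µg/ml.

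Suclg2 encodes the GTP-forming beta subunit of succinyl-CoA ligase. It read -0.05, 0.03 and -0.21 on the vehicle arrays, 0.04, -0.03 and 0.28 at 1 µg/ml, -0.19, -0.29 and -0.08 at 10 µg/ml and 0.31, 0.13 and 0.21 at 50 µg/ml. The 50 µg/ml arrays lay above the vehicle arrays and the 10 µg/ml arrays overlapped them. Suclg2 rose by 0.30 ± 0.09 at 50 µg/ml (SE, adjusted p = 0.0342) and was higher at 50 than at 10 µg/ml by 0.40 (adjusted p = 0.00738). The call against the vehicle was lost without vehicle replicate 1 or 3, without replicate 1 or 3 at 50 µg/ml, and when p-values were adjusted over single probe sets, with differences of 0.23 to 0.31 and adjusted p from 0.0505 to 0.139. The ATP-forming partner Sucla2 differed by -0.02 and the shared alpha subunit Suclg1 by 0.10 at 50 µg/ml, neither called.

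Citrate synthase and the isocitrate and oxoglutarate dehydrogenase genes were not called against the vehicle at any dose. Cs, citrate synthase, differed by 0.09 at 50 µg/ml (95% interval -0.03 to 0.21), and Ogdh, the oxoglutarate dehydrogenase, by 0.08 (95% interval -0.04 to 0.20). The isocitrate dehydrogenase genes Idh2, Idh3b and Idh3g differed by 0.04 to 0.06 at that dose. Idh3a, the catalytic subunit of the NAD-dependent enzyme, differed by 0.24 at 1 µg/ml (adjusted p = 0.212) and 0.05 at 50 µg/ml. Idh3a read 0.32, 0.01 and 0.31 at 1 µg/ml and -0.05, -0.36 and -0.04 at 10 µg/ml. The groups did not overlap, but replicate 2 stood well below the other replicates in each. Idh3a was lower at 10 than at 1 µg/ml (-0.36, adjusted p = 0.039), and so was Suclg2 (-0.28, adjusted p = 0.0491).

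Between doses, limma called 3 of the 40 genes for 50 against 10 µg/ml, 8 for 50 against 1 µg/ml and 9 for 10 against 1 µg/ml, beside 14.6%, 24.9% and 14.0% of all genes. The 3 genes for 50 against 10 µg/ml were Pfkfb3, lower (6.85% of all genes were lower), and Mdh2 and Suclg2, higher (7.75%), and the arrays did not overlap for 5 of 40 genes (26.2% of all genes). For 10 against 1 µg/ml, where 4.77% of all genes were higher and 9.2% lower, the arrays did not overlap for 15 of 40 genes (30.4%). The 4 genes higher at 10 µg/ml (Hk2, Pfkfb3, Pfkl and Aldoa) all belonged to glycolysis. The 5 genes lower there were Pdha1, Dld and Pdp1 of pyruvate dehydrogenase and Idh3a and Suclg2 of the cycle. The median difference was 0.10 over glycolysis, -0.13 over pyruvate dehydrogenase and -0.12 over the cycle. The count was 5 without replicate 1 at 1 µg/ml, 3 without replicate 3 at 1 µg/ml, 3 without replicate 2 at 10 µg/ml and 2 with only the 2 groups in the fit. Of the 9 calls, those of Hk2 and Pfkfb3 were kept in all 19 alternatives, and the others were lost in 1 (Aldoa), 4 (Pfkl), 5 (Dld), 6 (Pdp1), 9 (Idh3a), 10 (Pdha1) and 14 (Suclg2) of them. For 50 against 1 µg/ml the 7 genes higher were Slc2a1, Hk2, Aldoa, Pgam2, Ldhb, Pdk2 and Mdh2, and the gene lower was Pdhb, where 11.5% of all genes were higher and 13.4% lower. The arrays did not overlap for 13 of 40 genes (40.9% of all genes). The count of 8 was 5 without replicate 3 at 1 µg/ml and 4 without replicate 3 at 50 µg/ml. The calls of Slc2a1, Aldoa and Mdh2 were kept in all 19 alternatives, and the others were lost in 1 (Pgam2), 4 (Ldhb), 5 (Pdhb) and 9 (Hk2 and Pdk2). For 50 against 10 µg/ml the calls of Pfkfb3 and Suclg2 were kept in all 19 and that of Mdh2 was lost in 6.

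**Figure D4:**
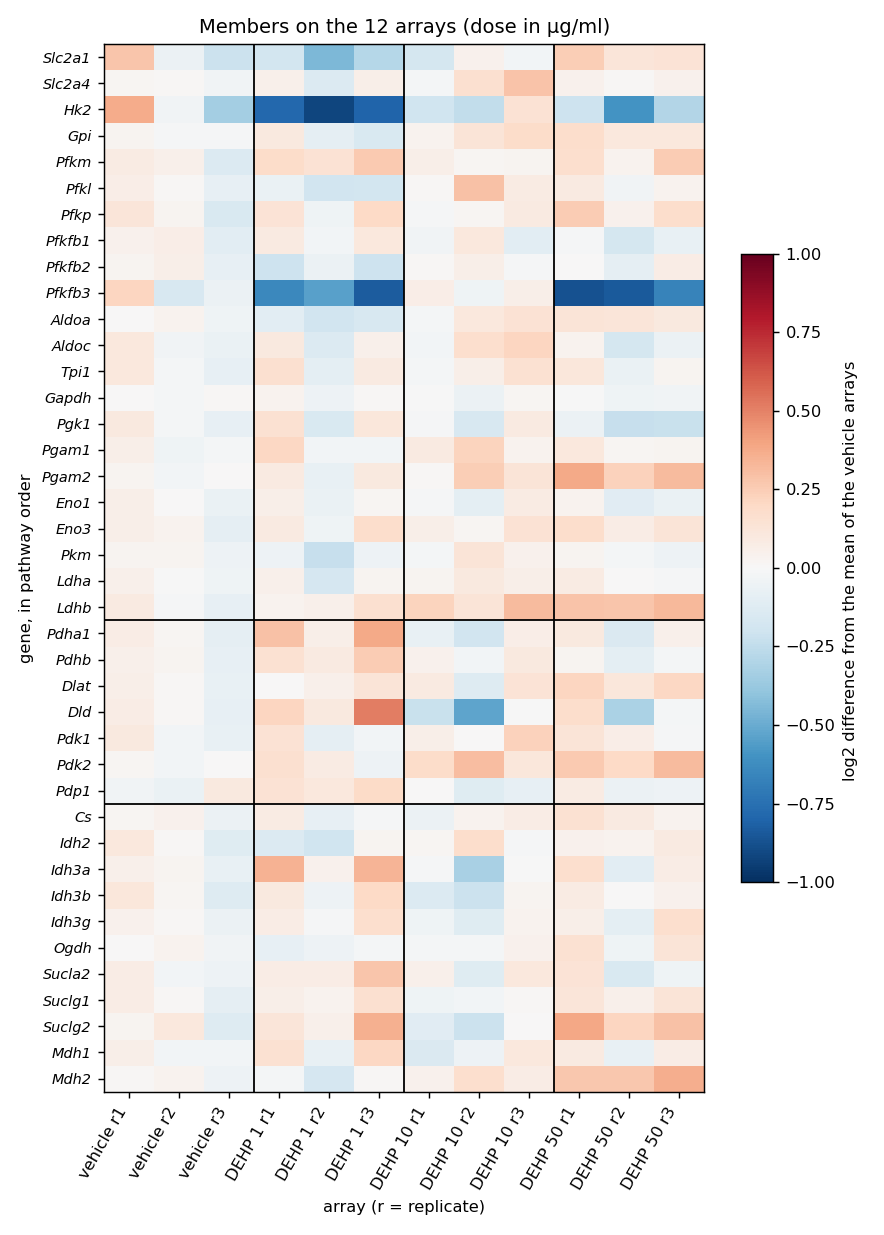
Heat map of the 40 genes (rows, in pathway order, with lines between glycolysis, pyruvate dehydrogenase and the cycle) on the 12 arrays (columns), coloured by the log2 difference from the mean of the vehicle arrays. Pfkfb3 is lower on all arrays at 1 and 50 µg/ml, and within the groups most genes are lowest together on vehicle replicate 3 and on replicate 2 at 1 and 50 µg/ml (33 of 40 genes each).

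Within the vehicle, 1 and 50 µg/ml groups, the 40 genes tended to rank the arrays alike. Vehicle replicate 3 was the lowest of its group for 33 of 40 genes (82.5%), against 38.5% of all genes, and vehicle replicate 1 the highest for 31 of 40 (77.5%), against 34.4%. Replicate 2 was the lowest for 33 of 40 genes at 1 µg/ml, against 37.4% of all genes, and for 33 of 40 at 50 µg/ml, against 45.9%. At 10 µg/ml the lowest array was replicate 2 for 20 of 40 genes (32.9% of all genes) and replicate 1 for 15 of 40 (31.3%). Replicate 3 was the highest there for 26 of 40 (31.2%). This spread between arrays of 1 group enters the standard errors of every comparison above, and its source was not tested.

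On the array medians, the 22 glycolysis genes stood at 0.06, 0.00 and -0.07 on the vehicle arrays and at 0.09, -0.01 and 0.03 at 50 µg/ml, relative to the vehicle mean. The 7 pyruvate dehydrogenase genes stood at 0.16, 0.08 and 0.19 at 1 µg/ml, above all vehicle arrays (0.06, 0.01 and -0.08). The 11 cycle genes stood at 0.14, 0.00 and 0.09 at 50 µg/ml and overlapped their vehicle values of 0.05, 0.02 and -0.06.

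Markers of several cell types differed between the groups. Over all genes, 8.75% rose and 8.84% fell at 50 µg/ml, and 2.51% rose and 1.74% fell at 1 µg/ml. Of 16 cardiomyocyte markers, all measured, 9 rose and 0 fell at 50 µg/ml with a median difference of 0.22. Their median at 10 µg/ml was 0.19 with 0 called, and at 1 µg/ml 0.04 with 1 called. Of 23 measured macrophage and leukocyte markers, 22 fell at 50 µg/ml with a median of -1.07, and their array medians there ran from -1.12 to -1.06 against -0.03 to 0.04 in the vehicle. At 1 µg/ml 3 of the 23 fell, with a median of -0.19 and array medians of -0.42 to -0.06. Of 10 endothelial markers 5 rose and 1 fell at 50 µg/ml (median 0.25), and 3 fell at 1 µg/ml (median -0.24). Of 10 epicardial and mesothelial markers 4 rose and 0 fell at 50 µg/ml (median 0.22), of 11 smooth muscle and pericyte markers 3 rose and 4 fell (median -0.07), and of 14 fibroblast markers 1 rose and 4 fell (median -0.01). The part of these shifts in the differences of the pathway genes, the fall of Pfkfb3 included, was not tested. In cultures of mixed cells, fewer cells of a type and less RNA per cell cannot be told apart.

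**Figure D5:**
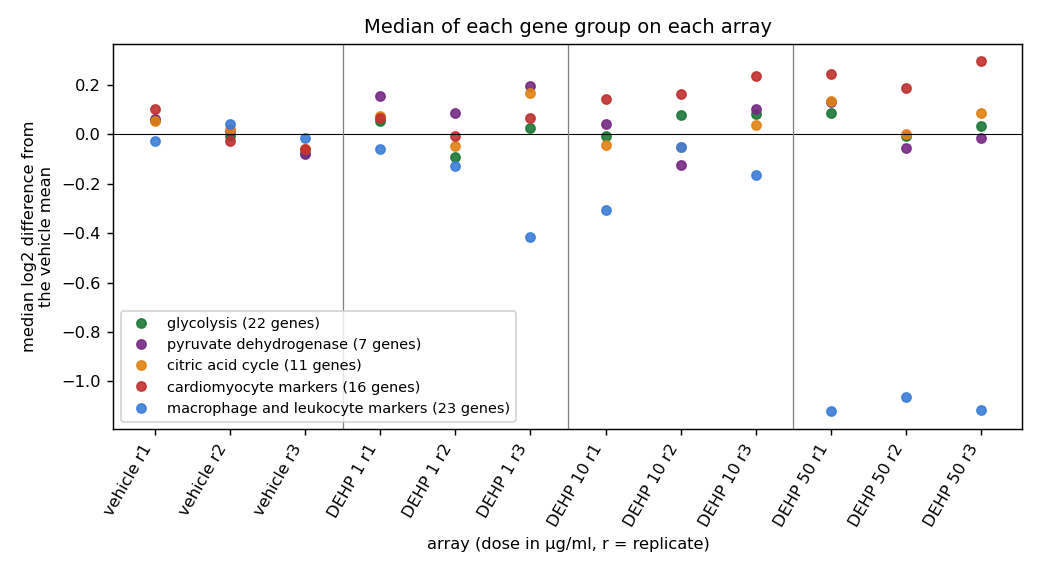
Median log2 difference from the vehicle mean (vertical axis) on each of the 12 arrays for the genes of glycolysis, pyruvate dehydrogenase and the cycle and for markers of cardiomyocytes and of macrophages and leukocytes. The macrophage markers stand at -1.12 to -1.06 and the cardiomyocyte markers at 0.19 to 0.29 on the 50 µg/ml arrays, while the pathway groups stay between -0.12 and 0.19 on all arrays.

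Other genes of the same steps, not among the 43, were read from lists drawn up from pathway knowledge. Of 19 measured genes of glucose entry, glycolysis and lactate, 3 were higher and 2 lower at 50 µg/ml, beside 8.75% and 8.84% of all genes. Slc16a1, the lactate and pyruvate carrier MCT1, rose by 0.50 ± 0.10 (SE, adjusted p = 0.00364), Galm, which interconverts the anomers of galactose and glucose, by 0.28 (adjusted p = 0.000732), and Bsg, the chaperone of these carriers, by 0.20 (adjusted p = 0.00689). Hk3, a hexokinase abundant in leukocytes, fell by 0.59 (adjusted p = 0.00025) and the glucose transporter gene Slc2a3 by 0.41 (adjusted p = 0.0333). At that dose 22 of 23 macrophage markers fell. At 1 µg/ml, where 3 of the 23 markers fell, Hk3 fell by 0.37 (adjusted p = 0.0251) and Slc2a3 was not called (-0.29, adjusted p = 0.203). Of the 19 genes, 3 were called at 1 µg/ml, Hk3 lower and Galm and Slc2a12 higher, beside 4.24% of all genes. Whether the leukocyte share bears on Hk3 and Slc2a3 was not tested.

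Of 16 further genes around pyruvate dehydrogenase and pyruvate entry, 2 were called at 50 µg/ml, beside 17.6% of all genes. Pc, the pyruvate carboxylase, rose by 0.32 (adjusted p = 0.0142) and Me2, a mitochondrial malic enzyme, fell by 0.33 (adjusted p = 0.00367). Pdk4, the pyruvate dehydrogenase kinase induced by fasting and fatty acids, was singled out after its values were seen. It rose by 0.53 ± 0.12 at 1 µg/ml (SE, adjusted p = 0.0306), the single gene of that list called there, beside 4.24% of all genes. Pdk4 differed by 0.15 at 10 µg/ml (adjusted p = 0.854) and -0.25 at 50 µg/ml (adjusted p = 0.19). At 50 µg/ml, where 8.75% of all genes rose and 8.84% fell, 3 of 12 further cycle genes rose and 0 fell. They were Dhtkd1, an oxoadipate dehydrogenase (0.52, adjusted p = 0.000219), Ogdhl, a relative of Ogdh (0.33, adjusted p = 0.00231), and Sdhaf1, an assembly factor of succinate dehydrogenase (0.32, adjusted p = 0.00555). In the 10 µg/ml cultures limma called 0 genes of these 3 lists, beside 0.0% of all genes. At an unadjusted p under 0.05 there were 2, 1 and 1, beside 899 of all 14324 genes.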

How the data were processed

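RNA from 12 cultures was measured on Affymetrix arrays, 1 array per culture. RMA (robust multi-array average) was run, per the submitters' processing notes, in a version not given in the sources used here. Each deposited value is a linear ratio of an array to the probe set's median over the 12 arrays, as found from the values (0.165 to 12.2), and was converted here to log2. The written design had assumed log2 values. Array medians ran from 0.994 to 1.01.

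Of 27342 probe sets, 15097 had 1 symbol, 323 several and 11922 none in the platform annotation. Genes were the mean of their probe sets with 1 symbol (14324 genes). Group means were fitted over all 12 arrays with limma 3.58.1 in R 4.3.3 (lmFit and eBayes, 8 residual degrees of freedom), giving two-sided tests for 6 comparisons, Benjamini-Hochberg adjustment over all genes and a threshold of 0.05. The code was tested on simulated data. An exact permutation test of 3 arrays against 3 cannot go below p = 0.1 and was not used. No intensity, detection call or scan date was used, so no filter on dim probe sets was run.

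Genes chosen for description were those called in any comparison and the 2 with the smallest p at 50 µg/ml in each of the 3 steps. A set of control points was added. Array values are printed for the called genes, for some of them in part of the groups. From related lists, at most 3 per direction past the threshold at 50 µg/ml were chosen. Members and lists were chosen with earlier results of these data known. The labels do not state that replicate numbers pair the cultures, so no pairing was assumed in the main fit. Of 18 pairs with the same number, 6 had a correlation of deviations over 0.1, in a range from -0.23 to 0.43. This check cannot exclude a pairing. Promoters are RefSeq sequences of GRCr8, and 39 sequences carried the symbol of a measured gene of the list. The alternatives were another quantile normalization, median centring, robust moderation, array weights, the compared groups alone, single probe sets, the replicate block and each array left out in turn.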

Additional observations from a re-analysis of the deposited data

How the results depend on the processing

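The counts of called pathway genes depended little on the alternatives at 50 µg/ml against the vehicle (6, or 4 to 7 with an array left out) and for 50 against 10 µg/ml (3, or 2 to 4). Array weights gave 1 gene at 10 µg/ml, where the fit without weights gave 0. Leaving out an array gave 1 to 2 genes at 1 µg/ml (2), 4 to 9 for 50 against 1 µg/ml (8) and 3 to 9 for 10 against 1 µg/ml (9). Quantile normalization applied again gave 5 for 50 against 1 µg/ml, and a fit of the compared groups alone gave 2 for 10 against 1 µg/ml. Same-numbered cultures were not known to be paired, and 5 of 12 arrays correlated best with their own number. With the replicate number as a block, the counts were 6, 0 and 2 at 50, 10 and 1 µg/ml against the vehicle. Between doses they were 3 for 50 against 10, 10 for 50 against 1 and 8 for 10 against 1 µg/ml. Of the results for single genes that were called, 0 reversed, while differences near 0 that were not called changed sign in some alternatives, as for Pfkfb3 at 10 µg/ml (-0.05 to 0.13) and Dld at 50 µg/ml (-0.17 to 0.08). Over all genes the count at 1 µg/ml was 608, but 1139 with quantile normalization, 1772 with array weights, 1661 with the compared groups alone and 176 to 1282 with an array left out. At 10 µg/ml, where it was 0, it was 15 with quantile normalization, 90 with array weights and 1 without vehicle replicate 1. For 50 against 10 µg/ml (2091) it was 3457 with array weights and 1312 with the compared groups alone, for 50 against 1 µg/ml (3562) it was 2321 with quantile normalization, and for 10 against 1 µg/ml (2001) it was 3155 with array weights, 697 with the compared groups alone, 944 and 820 without replicates 1 and 3 at 1 µg/ml and 880 without replicate 2 at 10 µg/ml. The reduced fits held fewer arrays, and the cause of these changes was not tested. Signal over background was not analysed here.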

Other observations

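Genes next to the pathway gave further values at 50 µg/ml, where 17.6% of all genes were called. At an unadjusted p under 0.05 there were 4172 of 14324 genes at that dose. Of 13 measured glycogen genes, Pygm, the muscle glycogen phosphorylase, rose by 0.46 ± 0.08 (SE, adjusted p = 0.00209), and Phkb, a subunit of the kinase that activates it, fell by 0.30 (adjusted p = 0.0166). Of the 7 measured genes of the NADH shuttles, the 7 of the pentose phosphate pathway and the 4 gluconeogenic phosphatases, limma called 0 at that dose, with 1, 0 and 0 at an unadjusted p under 0.05. At 1 µg/ml Prps1, which makes phosphoribosyl pyrophosphate, rose by 0.44 (adjusted p = 0.00355) and was singled out after its values were seen.

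Of 24 measured regulators and hypoxia response genes, 3 were higher and 6 lower at 50 µg/ml, beside 17.6% of all genes called. Txnip, which restrains glucose uptake and is itself induced by glucose, fell by 1.20 ± 0.07 (SE, adjusted p = 1.67e-07), and its relative Arrdc4 by 0.41 (adjusted p = 0.00125). Car9, a carbonic anhydrase of hypoxic cells, fell by 0.62 (adjusted p = 0.00276). The transcription factor gene Myc rose by 0.47 (adjusted p = 4.62e-05), Ppargc1b, a coactivator of mitochondrial genes, by 0.39 (adjusted p = 0.00236), and P4ha2, a collagen prolyl hydroxylase, by 0.29 (adjusted p = 0.00291). At 10 µg/ml limma called 0 of the 24, beside 0.0% of all genes, and the difference of Txnip was -0.06. At an unadjusted p under 0.05 there were 4 of the 24, beside 899 of all 14324 genes.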
